A study of Mus musculus with 6 samples.

Results

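The miR-23 and miR-27 paralog clusters are a pair of short gene clusters that each encode 1 miR-23, 1 miR-27 and 1 miR-24. The a cluster holds miR-23a and miR-27a on mouse chromosome 8, and the b cluster holds miR-23b and miR-27b on chromosome 13. The members are the 3p arms of these 4 hairpins (miR-23a-3p, MIMAT0000532; miR-27a-3p, MIMAT0000537; miR-23b-3p, MIMAT0000125; miR-27b-3p, MIMAT0000126), found by their mature miRNA identifiers. The 4 opposite arms (5p) were found as the loci within 80 bases on the same strand of the same hairpin. They are 4 members and 4 opposite arms among 2110 loci in all. Small RNA was sequenced from exosomes, the small vesicles that cells release, collected from muscle of young mice (3 libraries) and of old mice (3 libraries). No treatment or genotype sets the groups apart in the labels; the sources used here do not give the ages in months, the strain, the sex, the muscles taken or the way the vesicles were isolated. Nothing says that the replicates came from separate animals, so the tests see only how much these libraries vary among themselves, and that variation may be technical.

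In both clusters the miRNAs are cut from 1 primary transcript by Drosha and Dicer, and the 3p arm is the strand that is usually kept in the Argonaute complex. A miRNA selects its target messenger RNAs mainly through its seed, bases 2 to 8, so that paralogs with the same seed have largely the same predicted targets. In skeletal muscle miR-23a is known for repressing the ubiquitin ligases of muscle wasting, MuRF1 and atrogin-1, and miR-27a and miR-27b for acting on myostatin and on Pax3, a regulator of muscle progenitor cells. The clusters are also well known from endothelial cells.

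The sequences are shown because the comparison of a with b rests on a single base. Mature 3p arms, from RefSeq on GRCm38.p6 (the assembly also called mm10), are given 5′ to 3′ with the seed in capitals. miR-23a-3p lies at chr8:84208563-84208583, miR-27a-3p at chr8:84208727-84208747 and miR-27b-3p at chr13:63300760-63300780, all on the plus strand.
miR-23a-3p: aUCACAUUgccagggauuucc
miR-27a-3p: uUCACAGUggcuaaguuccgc
miR-27b-3p: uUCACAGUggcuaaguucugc

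The miR-23 hairpins follow whole, with the bases counted as miR-23a-3p and as miR-23b-3p (chr13:63300529-63300549, plus strand) in capitals. The Mir23a hairpin lies at chr8:84208518-84208592 and the Mir23b hairpin at chr13:63300484-63300557.
Mir23a: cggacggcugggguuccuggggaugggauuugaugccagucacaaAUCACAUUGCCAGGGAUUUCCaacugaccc
Mir23b: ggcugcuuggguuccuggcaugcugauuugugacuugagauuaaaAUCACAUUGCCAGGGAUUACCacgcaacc

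The 5p arms of the miR-27 hairpins, again with the seed in capitals, show how far the other strand of the paralogs has diverged. miR-27a-5p lies at chr8:84208685-84208706 and miR-27b-5p at chr13:63300718-63300739.
miR-27a-5p: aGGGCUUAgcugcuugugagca
miR-27b-5p: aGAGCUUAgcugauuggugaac

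Each counted 3p locus was 21 bases long. Over these bases miR-23a-3p and miR-23b-3p differed by U19A, and miR-27a-3p and miR-27b-3p by C19U, with positions counted from 1 at the 5′ end and the a paralog first. The paralogs therefore shared their first 18 bases and their whole seed. The seed of miR-23 differed from that of miR-27 by U6G, counted from the first base of the seed. The 5p arms were 5 edits apart between paralogs for miR-23 and also for miR-27, and their seeds differed. A read of a 5p arm is thus told apart at several bases, and a read of a 3p arm at 1 base near its 3′ end. The sources used here do not say how reads that end before that base were placed. The a-to-b ratios of the 3p arms below carry that limit, while sums over both paralogs do not depend on how reads were divided.

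In the annotation (GENCODE release M21), Mir23a and Mir27a lay in no other gene. Mir23b lay in an intron of the aminopeptidase gene Aopep, listed there as 2010111I01Rik, on the same strand. Mir27b lay in the same gene, where 1 transcript, of the nonsense-mediated decay type, has an exon over it. Both were also opposite to an intron of Fancc, a gene of the Fanconi anaemia pathway. The a cluster spans 404 bases from the start of Mir23a to the end of Mir24-2, with 79 bases between the first pair of hairpins, and the b cluster spans 792 bases, with 154 bases between Mir23b and Mir27b.

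**Figure D1:**
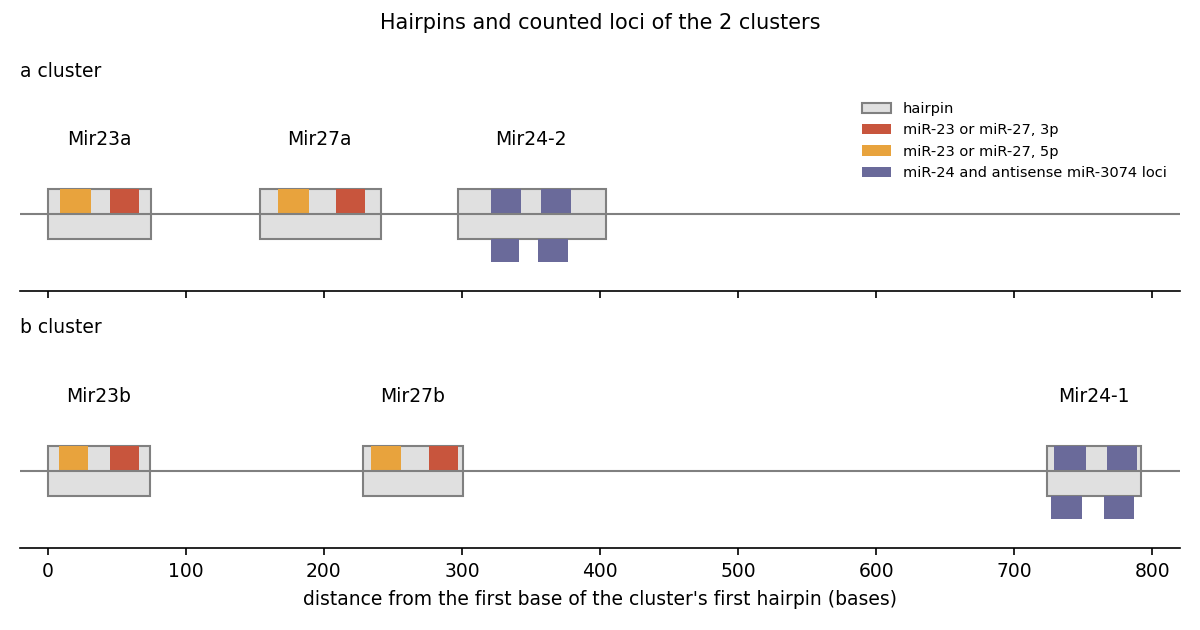
Map of both clusters, with the distance in bases from the first base of the first hairpin on the x axis; grey boxes are hairpins, coloured boxes counted loci, and boxes below the line are on the opposite strand. Only the miR-24 hairpins have loci on both strands, and the b cluster (792 bases) is longer than the a cluster (404 bases).

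miR-24, the third miRNA of each cluster, could not be read from the table. Its 3p arm and its 5p arms miR-24-1-5p and miR-24-2-5p each overlapped a miR-3074 locus on the opposite strand by 20 bases. The authors' counting used no strand option and leaves a read over 2 loci unassigned, per the file headers. Of these 8 loci, 7 held 0 counts in every library and miR-3074-1-3p held 1 count in young replicate 3. None of the members or their opposite arms overlapped another locus, and no member had another copy in the table.

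The libraries held 904892 to 1706396 counts. Old replicate 1 was the shallowest and stood apart, with 35.4% of its counts at miR-21a-5p against 49.0% to 52.9% in the other 5 libraries. Results that it moved by over 1.5 times or across the threshold are given with and without it. Of the marker miRNAs, the muscle list was present (its summed level was 49482 to 61096 CPM, the count scaled to a common library size with TMM factors, in the other 5 libraries and 90350 CPM in old replicate 1). The 4 endothelial loci, of miR-126a and miR-126b, were all at 0, and each overlaps another locus on the opposite strand.

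All 4 members were abundant in the vesicles. By total counts over the 6 libraries miR-27b-3p ranked 10th, miR-27a-3p 11th, miR-23a-3p 16th and miR-23b-3p 22nd of 2110 loci. Together they took 3.93%, 4.18% and 4.25% of the counts in young replicates 1, 2 and 3, and 4.56%, 4.92% and 4.63% in old replicates 1, 2 and 3. On this scale the old libraries lay above the young ones, with old replicate 1 nearest to them. The mean share was 4.12% ± 0.169 for young and 4.70% ± 0.195 for old libraries (SD, n = 3 each), a difference of 0.581 percentage points (two-sided exact permutation p = 0.1, the smallest that 3 against 3 libraries can give). The separation did not hold on the TMM scale used below, where the members summed to 39506, 42924 and 41477 CPM in young and 41537, 49941 and 49663 CPM in old, with old replicate 1 within the young range. On that scale the groups did not overlap at 27.1% of all tested loci.

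miR-27a-3p had 11177, 12135 and 11969 CPM in young replicates 1, 2 and 3, and 11897, 16602 and 16745 CPM in old replicates 1, 2 and 3. Old replicates 2 and 3 were above every young library, while old replicate 1 lay within the young range. The means were 11760 ± 512 and 15081 ± 2759 CPM (SD, n = 3 each), 1.28-fold higher in old with a 95% interval of 0.996 to 1.65. The log2 fold change was 0.36 ± 0.17 (SE), which did not pass edgeR's quasi-likelihood test (adjusted p = 0.233).

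miR-27b-3p, its paralog, had 12482, 13854 and 12501 CPM in the young libraries and 13236, 17906 and 16683 CPM in the old ones. Here too old replicates 2 and 3 stood above all young libraries and old replicate 1 lay among them. The means were 12946 ± 787 and 15942 ± 2422 CPM (SD, n = 3 each), 1.23-fold higher in old with a 95% interval of 0.964 to 1.57 (log2 fold change 0.30 ± 0.17, edgeR adjusted p = 0.299).

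miR-23a-3p had 9649, 10462 and 9976 CPM in the young libraries and 9797, 10638 and 10513 CPM in the old ones. The groups lay on top of each other. The means were 10029 ± 409 and 10316 ± 453 CPM (SD, n = 3 each), a ratio of 1.03 with a 95% interval of 0.821 to 1.29 (log2 fold change 0.04 ± 0.15, adjusted p = 0.910 by edgeR).

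miR-23b-3p, the least abundant member, had 6198, 6473 and 7031 CPM in the young libraries and 6606, 4796 and 5723 CPM in the old ones. Old replicates 2 and 3 were below every young library and old replicate 1 lay within the young range. The means were 6567 ± 424 and 5708 ± 906 CPM (SD, n = 3 each), 0.869 times the young level in old with a 95% interval of 0.680 to 1.11 (log2 fold change -0.20 ± 0.17, adjusted p = 0.532 by edgeR). The direction was thus opposite to that of miR-27b-3p, with which it shares a cluster.

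**Figure D2:**
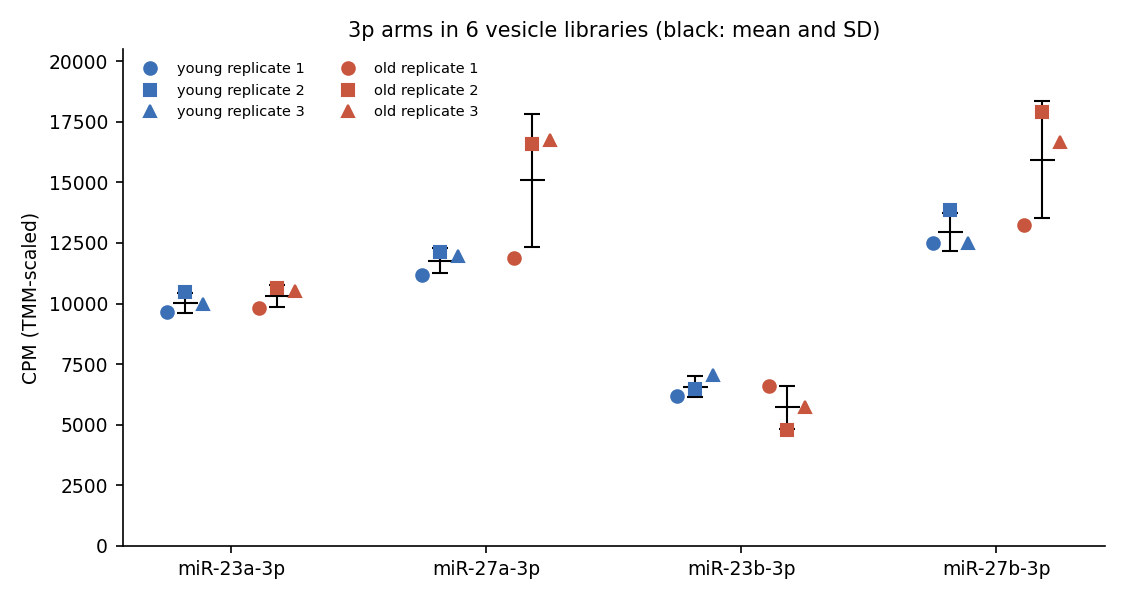
Level of the 4 members in each library, in CPM on TMM-scaled library sizes; each symbol is 1 library, blue young and red old, and the black bars are the mean and SD of 3 libraries. For miR-27a-3p and miR-27b-3p old replicates 2 and 3 lie above the young libraries (16602 to 17906 CPM against at most 13854), for miR-23b-3p they lie below them, and old replicate 1 (red circle) lies within or near the young range throughout.

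Of the 4 members, 0 passed the threshold of 0.05 on the adjusted p in edgeR, 0 had an unadjusted p under 0.05, and 0 passed in DESeq2. Over all 347 tested loci edgeR called 4.32% (3.46% higher and 0.865% lower in old), and 22.5% had an unadjusted p under 0.05. The groups overlapped for all 4 members, where they did not overlap at 27.1% of tested loci (14.1% higher and 13.0% lower in old). The median log2 fold change of the 4 members was 0.17, beside 0.04 over all tested loci, and 3 of the 4 values were positive, beside 182 of 347.

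Old replicate 1 decided the call for the miR-27 paralogs. Without it, by edgeR, miR-27a-3p was 1.44-fold higher in old (0.52 ± 0.13 on the log2 scale, adjusted p = 0.0053) and miR-27b-3p 1.35-fold higher (0.44 ± 0.13, adjusted p = 0.0233), so that both passed. miR-23a-3p (0.09, adjusted p = 0.663) and miR-23b-3p (-0.30, adjusted p = 0.150) did not pass without it either. That fit called 12.5% of 359 tested loci, 6.96% higher and 5.57% lower in old, against 4.32% with all libraries.

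Adding the paralogs gave values that do not depend on how reads were divided between a and b. miR-23-3p as a sum had 15795, 16954 and 17117 CPM in the young libraries and 16458, 15374 and 16175 CPM in the old ones. The groups overlapped, with a ratio of 0.963 and a 95% interval of 0.771 to 1.20 (log2 fold change -0.05 ± 0.15, adjusted p = 0.852 by edgeR). miR-27-3p as a sum had 23582, 26018 and 24630 CPM in the young libraries and 25216, 34375 and 33304 CPM in the old ones. It was 1.25-fold higher in old with a 95% interval of 0.979 to 1.60 (log2 fold change 0.32 ± 0.17, adjusted p = 0.268), and without old replicate 1 the log2 fold change was 0.48 (adjusted p = 0.0107). In this table, with 345 loci tested, 4.35% were called.

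**Figure D3:**
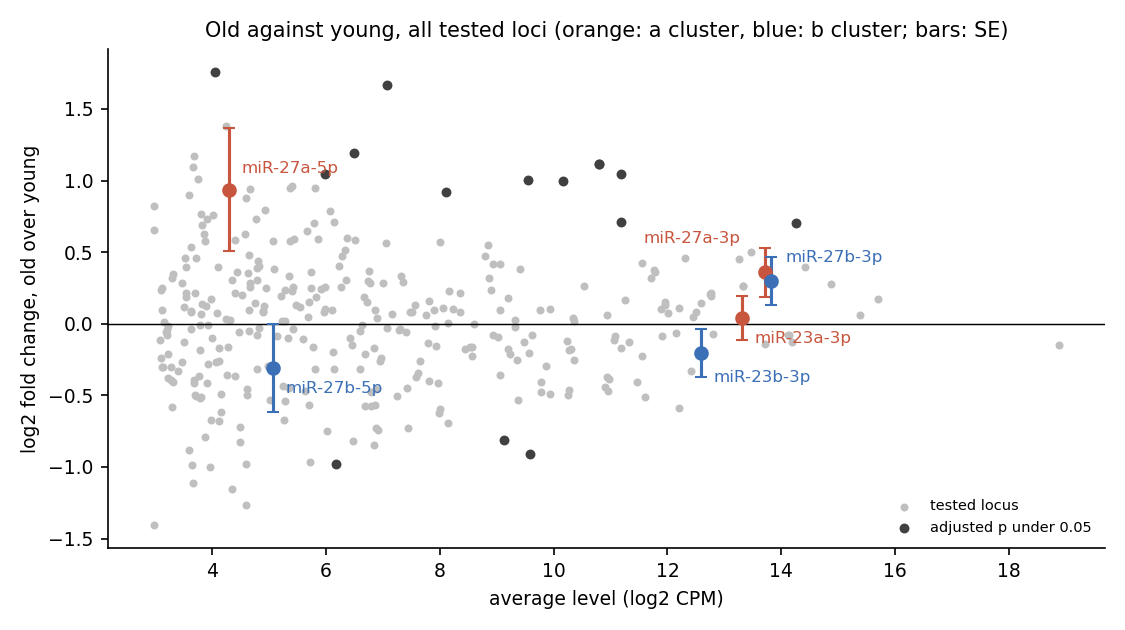
Log2 fold change of old over young against average level (log2 CPM) for 347 tested loci; dark points passed an adjusted p of 0.05, and coloured points with SE bars are the members and the 2 tested opposite arms (orange for the a cluster, blue for the b cluster). The 4 members sit among the most abundant loci and between -0.20 and 0.36, none of them among the dark points.

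The ratio of miR-27-3p to miR-23-3p within a library needs no scaling between libraries, and both miRNAs of a cluster are made from 1 primary transcript. In the a cluster this ratio was 1.16, 1.16 and 1.20 in young replicates 1, 2 and 3 and 1.21, 1.56 and 1.59 in old replicates 1, 2 and 3. The groups did not overlap, but old replicate 1 was close to the young libraries. The ratio was 1.23 times the young one in old (exact permutation p = 0.1, the smallest possible, and 0.2 adjusted over the 2 clusters). In the b cluster it was 2.01, 2.14 and 1.78 in young and 2.00, 3.73 and 2.92 in old. Old replicates 2 and 3 stood above the young libraries and old replicate 1 lay within them, for a 1.42-fold difference (exact permutation p = 0.3, adjusted 0.3). On the log2 scale this difference between old and young was 0.50, and 0.74 without old replicate 1; in the a cluster it was 0.30, and 0.43 without it. With both clusters summed, a comparison added after seeing the data, the ratio was 1.49, 1.53 and 1.44 in young and 1.53, 2.24 and 2.06 in old (1.29-fold, exact permutation p = 0.2).

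The clusters differed in this ratio. miR-27-3p exceeded miR-23-3p in all 6 libraries in both clusters, with a geometric mean ratio of 1.30 in the a cluster and 2.35 in the b cluster. The b ratio was 1.48 to 2.39 times the a ratio, higher in 6 of 6 libraries (two-sided exact sign-flip permutation p = 0.03125, not adjusted, the smallest that 6 libraries can give). It equals the a-to-b ratio of miR-23-3p divided by that of miR-27-3p, both given below, so it is no separate result. The difference between the clusters rests on how reads of the 3p arms were divided between the paralogs.

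Comparing a with b directly, miR-23a-3p exceeded miR-23b-3p in 6 of 6 libraries. The ratio was 1.56, 1.62 and 1.42 in young and 1.48, 2.22 and 1.84 in old replicates 1, 2 and 3. Its geometric mean was 1.67 (exact sign-flip permutation p = 0.03125, and 0.0625 adjusted over the 3 paralog ratios tested). Old and young overlapped, with a 1.19-fold difference (exact permutation p = 0.3, adjusted 0.45), or 0.25 on the log2 scale and 0.40 without old replicate 1.

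miR-27a-3p and miR-27b-3p were close to even. Their ratio was 0.895, 0.876 and 0.957 in young and 0.899, 0.927 and 1.00 in old, below 1 in 5 of 6 libraries, with a geometric mean of 0.925 (exact sign-flip permutation p = 0.0625, adjusted 0.0625). The order of the members was therefore miR-27b-3p, miR-27a-3p, miR-23a-3p and miR-23b-3p in every library except old replicate 3, where the first pair was reversed. That first pair did not differ by the sign-flip test at 0.05, and the difference in ratio between old and young was 1.04-fold (exact permutation p = 0.5, adjusted 0.5), or 0.052 on the log2 scale and 0.086 without old replicate 1. Reads that end before the base that differs, if spread over both loci, would draw such a ratio toward 1. Copies of 1 mature miRNA were near even for miR-26a-5p (9416 and 9406 CPM in young) but not for miR-92a-3p (2208 and 59.9 CPM in young). The placing of reads was not tested.

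**Figure D4:**
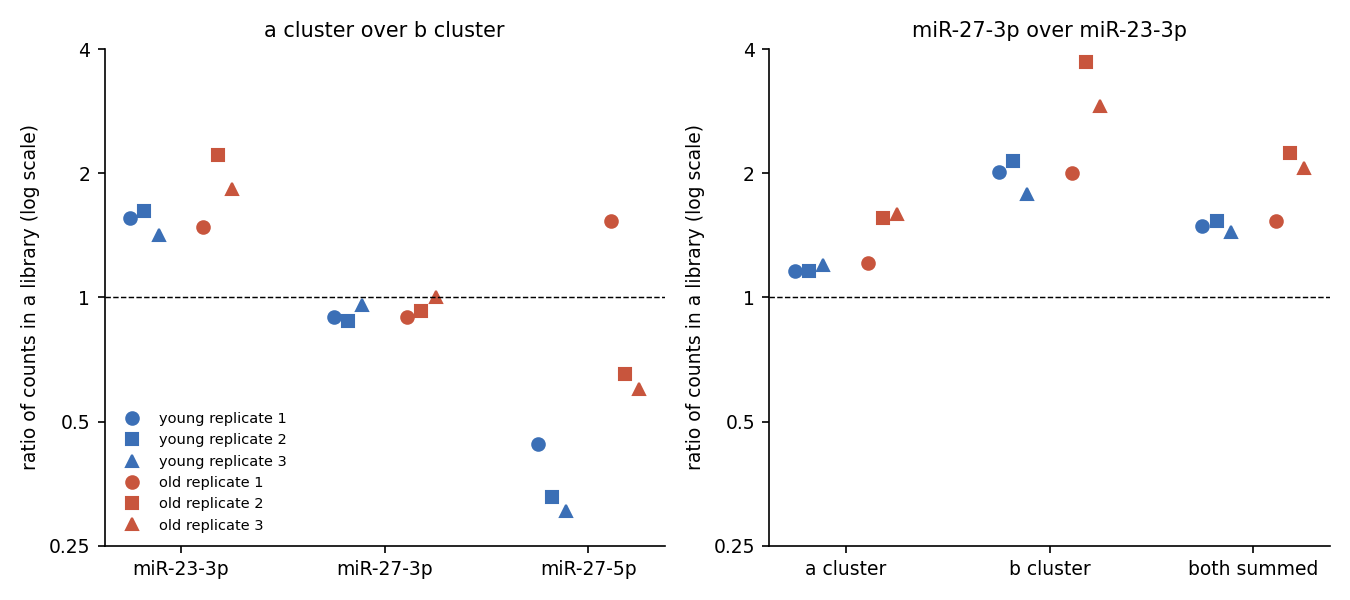
Ratios of counts within each library on a log scale, with a dashed line at 1; the left panel gives a over b for miR-23-3p, miR-27-3p and miR-27-5p, and the right panel miR-27-3p over miR-23-3p in each cluster and with both summed. Blue symbols are young and red symbols old libraries. The right panel shows old replicates 2 and 3 above the young libraries in all 3 columns (1.56 and 1.59 in the a cluster, 3.73 and 2.92 in the b cluster), with old replicate 1 near the young ones.

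The opposite arms were rare. miR-27b-5p had 64, 56 and 44 counts in young and 24, 34 and 47 in old replicates 1, 2 and 3, or 44.1, 33.7 and 28.2 CPM against 24.2, 24.3 and 36.5 CPM. Young replicate 1 was highest and the groups overlapped (log2 fold change -0.31 ± 0.31, adjusted p = 0.631 by edgeR, and -0.20 without old replicate 1).

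miR-27a-5p had 28, 18 and 13 counts in young and 37, 22 and 28 in old, or 19.3, 10.8 and 8.33 CPM against 37.3, 15.7 and 21.7 CPM. Old replicate 1 was highest, although its 3p arm was not raised, and young replicate 1 lay within the old range. Its log2 fold change of 0.94 ± 0.43 had an unadjusted p of 0.042 and an adjusted p of 0.192 by edgeR, so that it did not pass. Without old replicate 1 the log2 fold change was 0.57 (adjusted p = 0.412).

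miR-23b-5p had 10, 4 and 8 counts in young and 4, 4 and 9 in old. miR-23a-5p had 0, 0 and 0 counts in young and 0, 2 and 1 in old. Neither passed the filter on low counts, so 2 of the 4 opposite arms were tested and 0 were called, against 4.32% of all tested loci. A count of 0 allows up to 3 counts, or 3.02 CPM in old replicate 1 and 1.80 to 2.07 CPM in the young libraries (counting error only), so a difference in miR-23a-5p was not detectable at this depth.

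**Figure D5:**
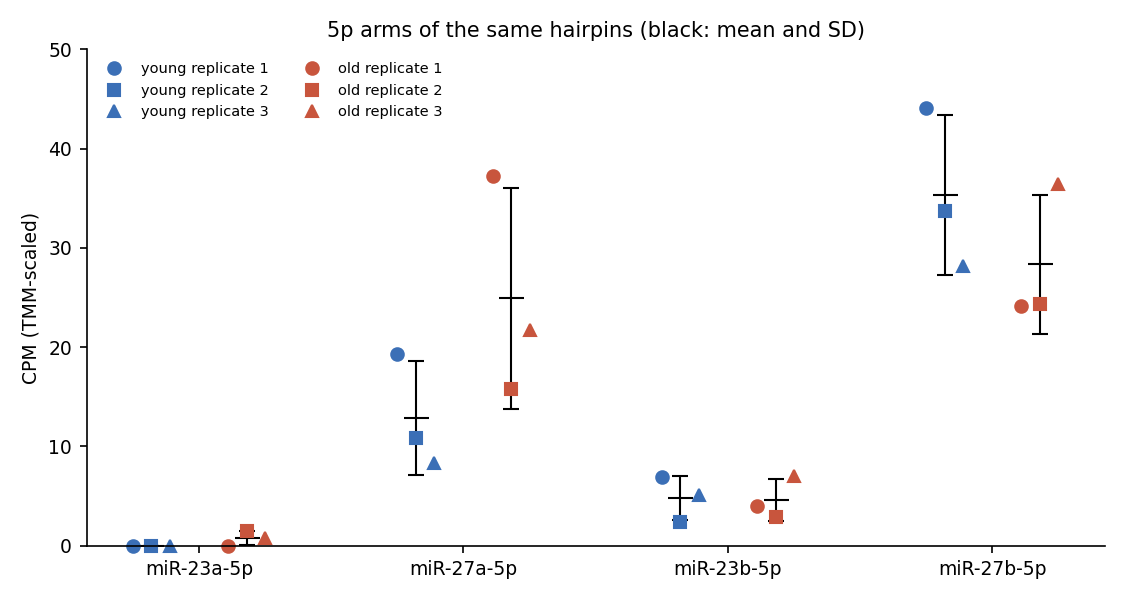
Level of the 5p arms of the 4 hairpins in each library, in CPM on TMM-scaled library sizes; symbols are libraries, blue young and red old, and black bars the mean and SD of 3 libraries. miR-23a-5p is at or near 0, and miR-27b-5p exceeds miR-27a-5p in all libraries except old replicate 1 (24.2 against 37.3 CPM).

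The 3p arm exceeded the 5p arm by 281-fold or more in every library and in each hairpin where both arms could be tested. For Mir27b the ratio of 3p to 5p (with 0.5 added to each count) was 281, 408 and 438 in young and 536, 725 and 453 in old. The groups did not overlap, and the ratio was 1.52 times the young one in old (exact permutation p = 0.1, the smallest possible, adjusted 0.2 over 2 hairpins). For Mir27a it was 569, 1091 and 1383 in young and 315, 1031 and 757 in old, which overlapped (0.659 times, exact permutation p = 0.4, adjusted 0.4). That difference, -0.60 on the log2 scale, was -0.11 when old replicate 1, whose ratio was lowest, was left out.

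Between paralogs the 5p arms did not have the near even balance of the miR-27 3p arms. The ratio of miR-27a-5p to miR-27b-5p was 0.442, 0.327 and 0.303 in young and 1.53, 0.652 and 0.600 in old. The old libraries were all above the young ones, and old replicate 1 was the single library in which the a arm exceeded the b arm. The old ratio was 2.39 times the young one (exact permutation p = 0.1, the smallest possible, adjusted 0.3 over 3 paralog ratios), on 13 to 64 counts per arm and library. On the log2 scale the difference was 1.26, and 0.83 without old replicate 1. Over the 6 libraries its geometric mean was 0.545 (exact sign-flip permutation p = 0.0625, adjusted 0.0625).

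Few other miRNAs had a related seed. No other locus with a RefSeq sequence had the same bases 2 to 8 as a member. The brain and muscle miRNA miR-128-3p, at 2 loci, and miR-216a-3p hold bases 3 to 8 of miR-27 within their first 8, and miR-323-3p those of miR-23. miR-128-3p had 93.7 and 120.5 CPM in young and old at its more abundant locus (log2 fold change 0.37 ± 0.23, edgeR adjusted p = 0.377). At the other locus it had 68.6 and 81.5 CPM (0.25 ± 0.26, adjusted p = 0.650). miR-216a-3p was at 0 in every library and miR-323-3p had 28 counts in all, under the filter. Of the 4 loci 2 were tested and 0 called, against 4.32% of all tested loci.

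Likeness of level over the 6 libraries was measured by Pearson correlation of log2 CPM, as a description of libraries that share depth and scaling. Among the members, miR-27a-3p and miR-27b-3p were most like each other (r = 0.968), and miR-23a-3p was like miR-27b-3p (r = 0.854) and miR-27a-3p (0.814). Reads that could be placed at either paralog would count toward both, so the r of 0.968 also depends on how reads were divided. miR-23b-3p ran opposite to the other 3 (r = -0.638 with miR-23a-3p, -0.814 with miR-27a-3p and -0.894 with miR-27b-3p). The 3 most like loci outside the members and their opposite arms were then listed for each. For miR-27a-3p and miR-27b-3p alike they began with let-7f-2-3p (r = 0.955 and 0.949, n = 6 libraries), the rare opposite arm of a let-7 hairpin, at 8.14 CPM in young and 16.2 CPM in old. miR-378a-3p followed (r = 0.923 and 0.918), an abundant miRNA from an intron of Ppargc1b. It had 18940 CPM in young and 24960 CPM in old (0.40 on the log2 scale, edgeR adjusted p = 0.155). The third were miR-2137 for miR-27a-3p (r = 0.894) and miR-29a-5p for miR-27b-3p (r = 0.891). Outside the members, miR-23a-3p was most like miR-409-3p (r = 0.910), miR-29a-5p (0.901) and miR-7689-3p (0.847). The loci most like miR-23b-3p were miR-181d-5p (r = 0.937), miR-470-5p (0.918) and miR-384-3p (0.877), each with a negative log2 fold change (-0.37, -0.44 and -0.88) that did not pass. Of these lists, those of the miR-27 paralogs shared 2 of 3 loci, which largely follows from their own r of 0.968. Each list holds the highest r among many tested loci over only 6 libraries, so high values can arise by selection alone.

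Marker miRNAs of the cells that muscle tissue can hold were set beside these values, where 3.46% of all tested loci were called higher and 0.865% lower in old. The muscle list had 4 of 6 tested loci higher and 0 lower. Of these 4, 2 were copies of the same mature miRNA, miR-133a-3p (log2 fold changes 1.12 and 1.11). The groups did not overlap at these 4 loci, nor at most other called loci, so this is no separate result (27.1% of all tested loci did not overlap). The list's summed level overlapped (50811 to 61096 CPM in young, 49482 to 90350 CPM in old, the highest being old replicate 1). Most of that sum was miR-206-3p, with means of 49920 CPM in young and 56287 CPM in old, which was not called. The smooth muscle and fibroblast list summed to 37524 to 39347 CPM in young and 47796 to 54044 CPM in old libraries, which did not overlap. Most of that difference was at miR-143-3p, at 14942 CPM in young and 24337 CPM in old. It was the 1 of the 9 tested loci that passed, and 0 were called lower. The list's members miR-199a-5p, at 2 loci (log2 fold changes -0.49 and -0.47), and miR-214-3p (-0.40) had negative values with groups that did not overlap. Positive values with groups that did not overlap were those of miR-145a-3p (0.59), miR-199a-3p at 2 loci (0.22 and 0.20) and miR-199b-3p (0.21). For miR-145a-5p (0.42) the groups overlapped. None of these passed. The leukocyte list summed to 1143 to 1345 CPM in young and 895 to 1008 CPM in old. The 1 of its 4 tested loci that was lower was miR-155-5p (-0.81), at 712 CPM in young and 407 CPM in old. The other tested loci, miR-223-3p (0.11), miR-150-5p (0.09) and miR-142a-5p (0.79), had positive values that did not pass. The red blood cell list had 0 of 3 loci called by edgeR and 0 with an unadjusted p under 0.05, and its sums overlapped (40544 to 42802 CPM in young, 41234 to 48322 CPM in old). Their part in the miR-23 and miR-27 values was not tested. More vesicles from a cell type and more of a miRNA per vesicle cannot be told apart in such pooled material.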

How the data were processed

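Reads were aligned with BWA to mm10, per the submitters' processing notes, and the authors deposited unnormalised read counts for each mature miRNA locus from featureCounts version 2.0.6, with no strand, overlap or multi-mapping option, per the file headers. The sources used here give neither trimming nor the BWA version. Loci were named by position from RefSeq (1734 by mature and 95 by hairpin entry) or GENCODE miRNA genes (272), and 9 stayed unnamed. Library totals ran from 904892 to 1706396 counts. The 95% intervals rest on edgeR's variance, which draws on all tested loci (15.5 to 16.7 degrees of freedom). They do not reflect the spread between 3 libraries a group alone. Old was tested against young with edgeR 4.0.16 (R 4.3.3), by the quasi-likelihood test after filterByExpr (minimum count 10, minimum total 15) and TMM scaling. Two-sided p-values were Benjamini-Hochberg adjusted over the 347 tested loci, with a threshold of 0.05. SEs came from the coefficient and its F statistic. Ratios within a library used 0.5 added to each count, and those with an arm under 10 counts in any library were not tested. They were compared with exact permutation tests (scipy 1.17.1). Alternatives were other scalings, no filter, DESeq2 1.42.0, summed copies, other pseudocounts, the replicate number as a block and leaving out each library. The procedure was tested on simulated data. The named miRNAs are the members, their opposite arms, the miR-24 loci, per member the 3 most correlated loci outside the members and opposite arms, and seed relatives; single marker miRNAs were named after their values were seen. Members and lists were chosen with earlier results of these data known.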

Additional observations from a re-analysis of the deposited data

How the results depend on the processing

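With all 6 libraries, the 4 members and both paralog sums kept their direction and stayed short of the threshold under DESeq2 size factors, total count scaling, TMM without miR-21a-5p in the library sizes, no filter, DESeq2 and the replicate block, and so did the members with summed copies. Leaving out single libraries gave log2 fold changes of 0.28 to 0.52 for miR-27a-3p, 0.21 to 0.44 for miR-27b-3p, 0.22 to 0.48 for the miR-27-3p sum and -0.30 to -0.09 for miR-23b-3p. The upper values for miR-27, without old replicate 1, passed. miR-23a-3p ran from -0.016 to 0.095, below 0 without young replicate 1, and the miR-23-3p sum from -0.11 to 0.038, above 0 without young replicate 2. The number of loci called, 15, was 23 by DESeq2, 6 with the replicate block and 5 to 45 without single libraries, with 45 without old replicate 1, 29 without old replicate 3, 5 without old replicate 2, 6 without young replicate 1 and 8 without young replicate 2 or 3. The cause was not tested. Same-numbered libraries did not deviate together (correlations -0.138, 0.0296 and -0.136), so the block is no sign of pairing. In it miR-27a-3p had 0.34 (adjusted p = 0.361) and miR-27b-3p 0.29 (adjusted p = 0.444). The difference of the miR-27 to miR-23 ratio between clusters was 0.77 to 0.91 on the log2 scale without single libraries, where 5 libraries cannot give a p below 0.0625. The ratios kept their direction under both other pseudocounts, 0 and 5, and without single libraries. The old-to-young difference in miR-27a-5p over miR-27b-5p, 1.26 on the log2 scale, was 0.83 to 1.50, with 0.83 without old replicate 1. Depth limits the 5p arms, at 0 to 64 counts a library.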
